A study of Mus musculus with 8 samples.

Results

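Lineage-negative cells of normal mouse bone marrow, the fraction left when cells carrying antigens of mature blood lineages are set aside, were compared with the B cells, T cells and myeloid cells sorted from normal marrow in the same study. For each gene the level in the lineage-negative library was set against the mean of the 3 other libraries and against their range, on the scale log2(FPKM + 1), where FPKM is fragments scaled by transcript length and by the mapped reads of the library. Of 16434 genes in the deposited table, 11587 had an FPKM of at least 1 in at least 1 of the 4 libraries and were compared, and 4847 did not. The gene just inside that limit was 9430034N14Rik, with a highest FPKM of 1.0006, and the gene just outside it was Fam110b, with 0.99991. All 4 populations came from bone marrow of C57BL/6 mice aged 8 to 10 weeks, and the labels name no transgene or treatment for them. B cells were sorted as B220+, T cells as CD3+ and myeloid cells as Mac1+Gr1+. The label of the lineage-negative sample names absence of B220, CD3, Mac1 and Gr1, while the protocol names a cocktail of 7 lineage antibodies without listing them. The labels do not say how many mice gave each sample. The other 4 of the 8 libraries are leukaemias and take no part in the comparison. Each group is 1 library, so no difference has a replicate check and none was tested. A gene is called higher or lower where the difference is at least 1 on the log2 scale, a 2-fold change of FPKM + 1, which understates the change of genes with low FPKM. The 95% intervals given for folds are exact binomial intervals on recovered fragment counts and cover counting error only.

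Marrow makes blood cells from a small pool of stem cells through progenitors that divide and commit to a lineage. Progenitors display receptors for growth factors and cytokines, such as Kit, the receptor for stem cell factor, and gain lineage antigens as they mature. Removing antigen-bearing cells therefore enriches progenitors, together with mature cells for which the antibody mixture holds no matching antibody. Neutrophil granule proteins are made in a fixed order, with myeloperoxidase and the serine proteases of primary granules first, at the promyelocyte stage, and lactoferrin and the gelatinases of later granules afterwards.

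The size of the lineage-negative library, inferred from the smallest step of its FPKM values, was 44474272 fragments. The other libraries had 37000630 to 52280282 by the same measure. In the lineage-negative library 72.6% of this size was recovered in the listed genes. An FPKM of 1 at the median transcript length corresponded to 69 fragments in the lineage-negative library, with an interval of 0.778 to 1.27 FPKM. Levels of the genes behind the sorting antigens were read before any other comparison. Cd3e, which encodes a chain of the T-cell receptor complex, stood at 1.06 FPKM in the lineage-negative library, 0.244 in B cells, 221 in T cells and 0.233 in myeloid cells. Ptprc, which encodes CD45 and its B220 form, stood at 182 FPKM in the lineage-negative library, 362 in B cells, 766 in T cells and 451 in myeloid cells; the other forms of CD45 are read by the same gene, so it does not check the B220 gate. Itgam, which encodes Mac1, stood at 34.1 FPKM in the lineage-negative library, 5.07 in B cells, 2.43 in T cells and 208 in myeloid cells. Ly6g, which encodes an antigen bound by Gr1 antibodies, stood at 85.4 FPKM in the lineage-negative library, 12.8 in B cells, 5.08 in T cells and 798 in myeloid cells. Transcripts of the T-cell antigen were thus low beside the T-cell library, whereas those of Itgam and Ly6g were lower than in myeloid cells and above the levels in B and T cells. Ly6c2, also listed with the genes of the sorting antigens, went the other way, at 154% of the myeloid level. Itgam has 2 rows in the table, and the row matching the annotated gene was used. In bulk RNA, fewer cells of a type and less RNA per cell cannot be told apart.

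Markers of mature lineages were present in the lineage-negative library at levels that differed by lineage. The 21 neutrophil genes summed to 23362 FPKM, against 205114 in myeloid cells, 3210 in B cells and 1205 in T cells, and none of them was at 0. The 13 genes common to B-lineage cells summed to 1319 FPKM, against 7190 in B cells, 1801 in T cells and 512 in myeloid cells. That list holds Ptprc, and without it the 12 others summed to 1136 FPKM, against 6828 in B cells, 1036 in T cells and 61.5 in myeloid cells. The 19 genes common to T cells summed to 174 FPKM, against 5169 in T cells, 320 in B cells and 31.1 in myeloid cells. The T-cell library thus also held B-lineage transcripts, at 14% of the B-cell level for the median gene. The part of these mature-cell transcripts in the differences described here was not tested.

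More genes were higher in lineage-negative cells than were lower. Of the 11587 genes, 2023 were called higher than the mean of the 3 others, which is 17.5% of those compared, and 416 were called lower, which is 3.59%. The median difference over all genes was 0.29. The excess of higher calls moved with the scaling. Libraries were also scaled by the median of ratios to a common reference, a method that assumes no change for most genes. With it 986 genes were higher and 900 lower. The share of calls that were higher fell from 82.9% to 52.3%, and the median difference became −0.05. This scaling divided the lineage-negative library by 1.26 and the myeloid library by 0.670. As deposited, the myeloid library was the lowest of the 4 for 6330 genes, or 54.6%. Of the 2023 genes higher than the mean, the myeloid library was the lowest of the 3 others for 1049, or 51.9%. Without the myeloid library in the mean, 1853 genes were higher and 1067 lower.

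The range of the 3 other libraries gives a stricter reading. The lineage-negative level was at least 2-fold above the highest of the 3 for 497 genes, which is 4.29% of those compared, and at least 2-fold below the lowest for 30, which is 0.259%. Under the median-ratio scaling 256 genes were above all 3 and 114 were below all 3. All 256 were among the 497, which had to be so. That scaling divides the lineage-negative library by the largest factor, and it can only lower its level relative to the others. Without the B-cell library 1221 genes were above both others that remained and 116 below both, without the T-cell library 721 and 86, and without the myeloid library 1187 and 357. Of the 2023 genes higher than the mean, 1526 were not above all 3, and 417 of those lay below the highest of the 3. Each other population was read the same way in turn. B cells had 635 genes above the 3 others, or 5.48%, and 148 below, or 1.28%. T cells had 787 above, or 6.79%, and 477 below, or 4.12%. Myeloid cells had 925 above, or 7.98%, and 2724 below, or 23.5%. Lineage-negative cells thus had the fewest genes apart from the other populations in each direction, as they did under both other scalings. The 497 genes included 439 protein-coding genes, 21 receptor or immunoglobulin segments and 40 predicted genes, classes that overlap in part, and their median FPKM in the lineage-negative library was 12.2. The next highest library was B cells for 217 of them, myeloid cells for 178 and T cells for 102.

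**Figure D1:**
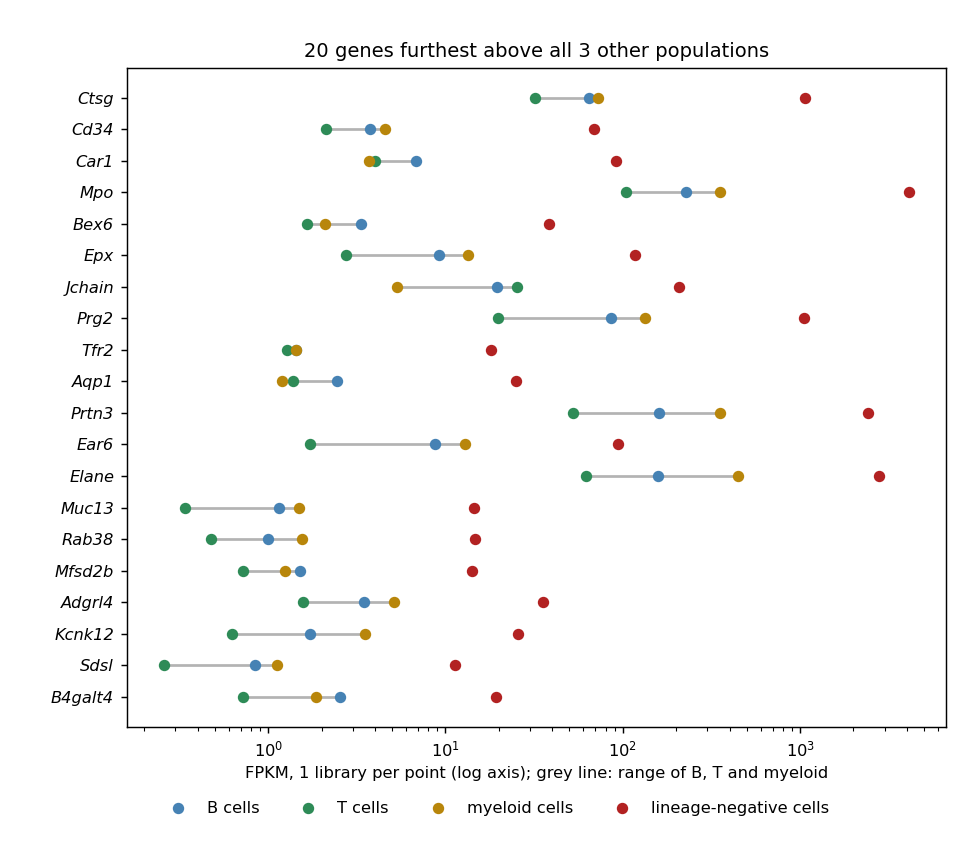
FPKM on a log scale of the 20 genes farthest above the highest of the 3 other normal libraries, with 1 point for each of the 4 libraries and a grey line over the range of the 3 others. For Ctsg the lineage-negative point lies at 1059.9 and the 3 others between 31.8 and 72.3, and for each of the 20 genes the lineage-negative point lies to the right of the 3 others.

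Genes of primary granules and of the eosinophil granule, the progenitor antigen Cd34 and genes of red cell precursors led the difference. Ctsg, which encodes the primary granule protease cathepsin G, stood at 1059.9 FPKM in the lineage-negative library, 64.1 in B cells, 31.8 in T cells and 72.3 in myeloid cells. It was 14.7-fold above the highest of the 3, with an interval of 14.1 to 15.2, and lies on chromosome 14 at 56099881 to 56102574 in GRCm38. Cd34, a surface sialomucin of stem and progenitor cells, on chromosome 1 at 194938819 to 194961279, stood at 68.8 FPKM against 3.75, 2.13 and 4.56 in B, T and myeloid cells, 15.1-fold above the highest with an interval of 13.8 to 16.5. Car1, a carbonic anhydrase of red cells, stood at 91.5 FPKM against 6.80, 3.99 and 3.73 in the same order, 13.5-fold above the highest. In each of these genes all 3 other libraries lay far below the lineage-negative one. Also among the 20 genes farthest above the others were Tfr2, transferrin receptor 2, at 18.0 FPKM against 1.44 in B cells, the next highest library, and Aqp1, a water channel of red cells and endothelium, at 25 against 2.43 in B cells. Muc13, a transmembrane mucin, stood at 14.6 FPKM against 1.49 in myeloid cells, and Adgrl4, an adhesion receptor, at 35.7 against 5.10 in myeloid cells. Mfsd2b, a sphingosine-1-phosphate exporter of red cells and platelets, stood at 14.1 FPKM against 1.51 in B cells. Rab38, a small GTPase of lysosome-related organelles, stood at 14.7 FPKM against 1.54 in myeloid cells. Bex6, Kcnk12, Sdsl and B4galt4 stood at 38.1, 25.8, 11.3 and 19.2 FPKM in the lineage-negative library, between 7.30-fold and 11.4-fold above the highest of the others.

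Stem and progenitor regulators were higher in lineage-negative cells. Of 22 listed, 20 were compared, and Mecom and Tek fell under the filter. Of the 20, 13 were higher than the mean of the others and 1 was lower, 8 were above all 3, and the median difference was 1.75 against 0.29 over all genes. The shares over all genes compared, for reading this and later lists, were 17.5% higher, 3.59% lower and 4.29% above all 3. Kit stood at 57.9 FPKM in the lineage-negative library, 3.98 in B cells, 4.43 in T cells and 17 in myeloid cells. The lineage-negative level was 3.41-fold above the myeloid one. Hoxa9, a homeobox factor of stem and myeloid progenitor cells, stood at 15.5 FPKM against 2.61, 0.864 and 1.07 in B, T and myeloid cells, and its partner Meis1 at 6.09 against 1.22, 0.317 and 0.783. Tal1, a bHLH factor of stem and erythroid cells, stood at 14.6 FPKM against 0.75, 1.83 and 2.84. Kit, Hoxa9, Meis1 and Tal1 were lower in each of the 3 other populations. Gata2, a zinc-finger factor of stem cells, mast cells and basophils, stood at 141 FPKM against 9.49 in B cells, 51.8 in T cells and 10.8 in myeloid cells, so its T-cell level was the nearest, with a 2.73-fold gap. Other regulators were not set apart. Lmo2 stood at 198 FPKM against 168 in B cells, Myb at 198 against 163 in B cells, and Erg at 34.2 against 40.0 in myeloid cells. Slamf1 was the 1 member called lower, at 0.575 FPKM against 5.07, 4.53 and 0.0161, and Ly6a, which encodes the antigen Sca-1, stood at 13.8 against 111, 51.2 and 2.56.

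Among the cytokine receptors of progenitors, 8 of 13 were higher than the mean, none was lower and 4 were above all 3. Kit, Epor and Il3ra were among the 4, and 2 were left above all 3 under the median-ratio scaling. Without the myeloid library 8 were above both others, as were 1187 genes in all. Il3ra, the alpha chain of the interleukin-3 receptor, stood at 50.1 FPKM against 15.5, 17.9 and 18.7 in B, T and myeloid cells. Receptors that mature myeloid cells also carry were highest in the myeloid library as deposited. Csf3r, the G-CSF receptor, stood at 113 FPKM in the lineage-negative library and 947 in myeloid cells. Csf1r, the M-CSF receptor, stood at 53.7 and 56.1, close levels whose order reversed with libraries scaled to a common FPKM sum. Flt3, the receptor of lymphoid and dendritic progenitors, stood at 26.8 FPKM in lineage-negative cells and 19.1 in B cells. Of 10 Hox and TALE homeobox genes compared, 3 were higher than the mean and 2 were above all 3, namely Hoxa9 and Meis1. Without the B-cell library 4 were above both others, as were 1221 genes in all. The third gene higher than the mean was Hoxa7, at 9.47 FPKM against 5.91, 1.04 and 0.408 in B, T and myeloid cells.

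Primary granule genes of promyelocytes were higher in the lineage-negative library than in the myeloid library, whereas neutrophil genes of later stages were lower. All 9 promyelocyte genes were higher than the mean of the others and 6 were above all 3, with a median difference of 3.62. Mpo, which encodes myeloperoxidase, on chromosome 11 at 87793581 to 87804413, stood at 4089 FPKM in the lineage-negative library, 228 in B cells, 105 in T cells and 354 in myeloid cells, and was 11.5-fold above the myeloid library with an interval of 11.4 to 11.7. Elane, neutrophil elastase, stood at 2797 FPKM against 158, 62.0 and 445 in B, T and myeloid cells. Prtn3, proteinase 3, stood at 2414 FPKM against 160, 52.6 and 353. The lineage-negative library was the highest and the myeloid library the next highest for all 3 of these genes. The exceptions were Cebpe, a factor required for later granules, at 78.4 FPKM against 346 in myeloid cells, and Fcnb, ficolin B, at 134 against 503. The summed level of the 9 genes was 10939 FPKM in lineage-negative cells, 672 in B cells, 284 in T cells and 2178 in myeloid cells.

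None of the 21 neutrophil genes was highest in the lineage-negative library. S100a9, a calcium-binding protein abundant in neutrophils, stood at 7170.1 FPKM in the lineage-negative library, 1122 in B cells, 380 in T cells and 65795 in myeloid cells. Ltf, lactoferrin, stood at 2785 FPKM against 368, 152 and 26716. Ngp, a later-granule protein, stood at 2436 FPKM against 321, 129 and 23489. The lineage-negative level was a median of 10.4% of the myeloid level over the 21 genes, from 4.66% for Il1b to 16.4% for Itgam, with quartiles at 9.55% and 10.9%. The B-cell and T-cell libraries held 1.38% and 0.624% of the myeloid level. By the same measure the 9 promyelocyte genes stood at a median of 392% of the myeloid level, from 22.7% for Cebpe to 1467% for Ctsg, and 7 of 9 were over 100%. Under the median-ratio scaling the medians were 5.53% for the neutrophil genes and 209% for the promyelocyte genes. Against the mean of the 3 libraries, 15 of the 21 neutrophil genes were called higher, with a median of 1.17, because the B-cell and T-cell levels enter the mean; 2 were called higher under the median-ratio scaling, and without the T-cell library the median was −0.25. Without the myeloid library all 21 were above both others, as were 1187 genes in all. The median of the 21 was then 3.37.

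**Figure D2:**
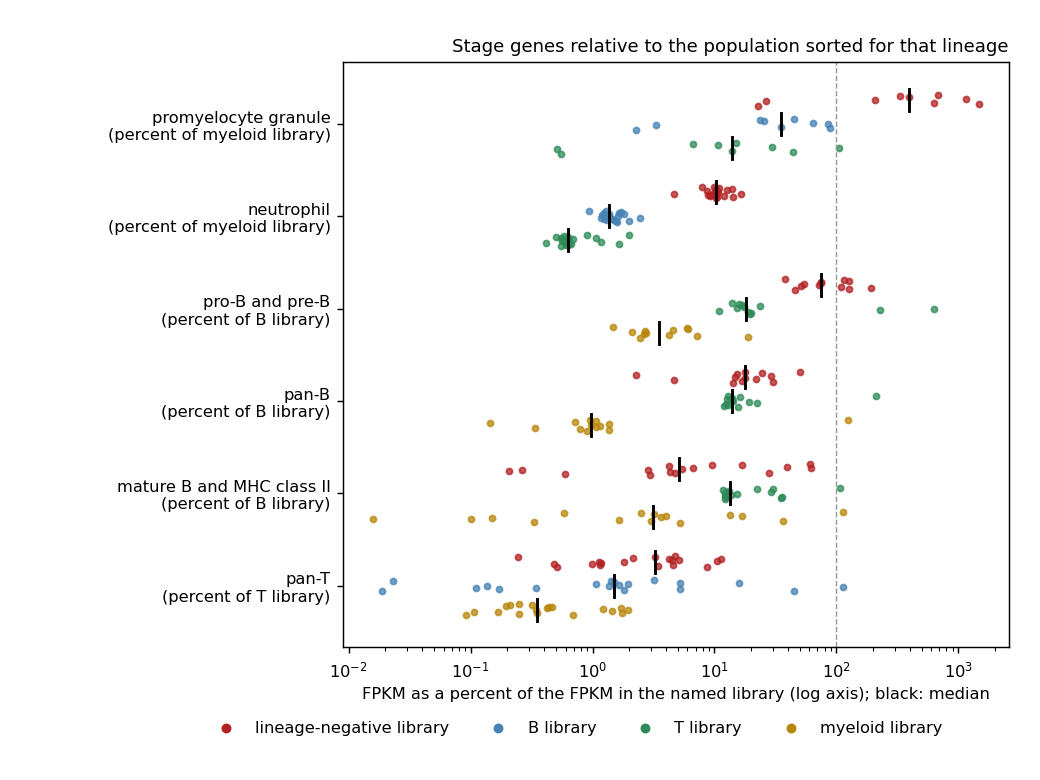
Level in a library as a percent of the level in the library sorted for that lineage, on a log axis, with 1 point per gene, a black bar at the median and a dashed line at 100%. The neutrophil genes of the lineage-negative library cluster around 10.4% of the myeloid level, the promyelocyte genes spread around 392%, and the pro-B genes lie around 74.7% of the B-cell level.

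Monocyte genes were divided. Of 20, 9 were higher than the mean, 3 were lower and 2 were above all 3, beside 17.5%, 3.59% and 4.29% of all genes. Under the median-ratio scaling none was above all 3, whereas 9 were above both others without the myeloid library, as were 1187 genes in all. F13a1, coagulation factor XIII A chain, stood at 187 FPKM in the lineage-negative library, 13 in B cells, 3.66 in T cells and 73.0 in myeloid cells, a gap of 2.56-fold to the myeloid level. Ly6c2, which encodes the monocyte antigen Ly6C, stood at 940 FPKM against 199, 306 and 609, although reads can be shared with its copy Ly6c1. The complement genes of tissue macrophages were the 3 called lower. C1qa stood at 2.70 FPKM against 20.9 in B cells, 3.30 in T cells and 11.1 in myeloid cells, and C1qb and C1qc had the same order. Of 9 genes of conventional dendritic cells, 5 were higher than the mean and 1 was lower. Zbtb46, a factor of that lineage, was the only one above all 3, at 2.15 FPKM against 0.225, 0.485 and 0.129. None was above all 3 under the median-ratio scaling, and 5 were above both others without the B-cell library, as were 1221 genes in all. Of 8 plasmacytoid dendritic cell genes, 1 was higher and 3 were lower, beside 17.5% and 3.59% of all genes. Siglech was at 33 FPKM against 361 in B cells. The median of these 8 was 0.40, −0.02 under the median-ratio scaling and −1.16 without the myeloid library.

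Basophil and eosinophil genes were higher in the lineage-negative library than in the other populations. Of 14 basophil and mast cell genes, 12 were higher than the mean, 9 were above all 3 and the median difference was 2.85, while 6 were above all 3 under the median-ratio scaling. Prss34, which encodes the basophil protease mMCP-11, stood at 1436 FPKM in the lineage-negative library, 84.5 in B cells, 294 in T cells and 99.4 in myeloid cells. Mcpt8, a basophil protease, stood at 819 FPKM against 55.0, 147 and 55.3, and Cpa3, a carboxypeptidase of mast cells and basophils, stood at 155 against 9.85, 32.5 and 11. Fcer1a and Ms4a2, which encode chains of the high-affinity IgE receptor, stood at 61.9 and 95.7 FPKM in the lineage-negative library and at 16.3 and 26.9 in T cells. The T-cell library was the next highest for all 9 genes above all 3. Of the 14 genes, 3 were not highest in the lineage-negative library. Hdc, histidine decarboxylase, stood at 118 FPKM against 341 in myeloid cells, Ifitm1, an interferon-induced membrane protein, at 93.7 against 188 in myeloid cells, and Gzmb, granzyme B, at 14.8 against 68.9 in T cells.

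Promoter sequences of basophil and red cell precursor genes are shown because GATA factors, which bind the letters AGATAA, act in both lineages and Gata1 and Gata2 were both above all 3. Promoters are from the RefSeq table for GRCm38.p6 and run from 250 bases before to 50 after the gene's start, written 5′ to 3′ on the gene's strand, with AGATAA or its reverse complement TTATCT in capitals. These 5 promoters were chosen for holding the letters, and a match is a description and not a binding site. Prss34 is at chr17:25298144-25298443 on the plus strand, Cpa3 at chr3:20242132-20242431 on the minus strand, Ms4a2 at chr19:11623670-11623969 on the minus strand, Tal1 at chr4:115056176-115056475 on the plus strand and Epor at chr9:21963527-21963826 on the minus strand.
Prss34: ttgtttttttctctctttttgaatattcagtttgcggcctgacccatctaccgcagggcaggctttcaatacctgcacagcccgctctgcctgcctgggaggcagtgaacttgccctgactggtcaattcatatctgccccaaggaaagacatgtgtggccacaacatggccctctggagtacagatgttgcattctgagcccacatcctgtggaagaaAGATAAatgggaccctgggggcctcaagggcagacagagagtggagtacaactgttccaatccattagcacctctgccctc
Cpa3: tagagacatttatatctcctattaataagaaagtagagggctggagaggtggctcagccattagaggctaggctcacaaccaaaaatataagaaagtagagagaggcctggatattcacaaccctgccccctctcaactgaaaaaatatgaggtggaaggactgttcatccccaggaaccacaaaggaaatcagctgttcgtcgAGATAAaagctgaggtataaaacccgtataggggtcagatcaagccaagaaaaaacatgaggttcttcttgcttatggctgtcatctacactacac
Ms4a2: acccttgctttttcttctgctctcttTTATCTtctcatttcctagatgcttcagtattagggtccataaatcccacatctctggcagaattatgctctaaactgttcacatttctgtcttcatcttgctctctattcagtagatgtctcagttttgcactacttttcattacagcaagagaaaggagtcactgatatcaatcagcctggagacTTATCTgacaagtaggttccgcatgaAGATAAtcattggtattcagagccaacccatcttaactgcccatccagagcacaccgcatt
Tal1: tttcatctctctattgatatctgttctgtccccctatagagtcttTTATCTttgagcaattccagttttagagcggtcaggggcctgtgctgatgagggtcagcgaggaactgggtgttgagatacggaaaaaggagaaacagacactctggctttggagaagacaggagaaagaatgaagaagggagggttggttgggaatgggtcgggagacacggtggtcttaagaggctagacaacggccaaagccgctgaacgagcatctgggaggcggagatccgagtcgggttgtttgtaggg
Epor: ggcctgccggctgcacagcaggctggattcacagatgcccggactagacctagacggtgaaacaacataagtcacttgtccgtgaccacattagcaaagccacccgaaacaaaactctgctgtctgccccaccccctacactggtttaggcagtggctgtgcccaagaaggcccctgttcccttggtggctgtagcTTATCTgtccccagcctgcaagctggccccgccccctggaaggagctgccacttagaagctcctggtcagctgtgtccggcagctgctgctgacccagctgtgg
In Prss34 and Cpa3 the letters begin 31 and 46 bases before the start, Ms4a2 holds 3 copies at 224, 37 and 11 bases before it, and those of Tal1 and Epor begin 205 and 54 bases before it. The letters were in 5 of the 14 basophil and mast cell promoters, or 35.7%, in 5 of 12 globin and red cell promoters, or 41.7%, and in 2 of 10 promoters of erythroid factors, or 20%. They were in none of 7 promyelocyte promoters and in 4 of 12 promoters of mature B-cell genes, or 33.3%. Other lists also varied, with 3 of 8 for haem and iron, or 37.5%, 5 of 20 for neutrophil genes, or 25%, and 0 of 22 for DNA replication. List shares count genes with the letters in any of their promoters, whereas the share of all 32851 counts promoters. Of all 32851 promoters, 11.2% held them, among the 7437 compared genes with a promoter 8.50%, and among the 349 such genes above all 3 libraries 43, or 12.3%. With so few promoters per list these shares are descriptions.

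Eosinophil genes followed a like order with a different next highest library. Of 10, 8 were higher than the mean and 6 were above all 3, with a median of 2.95, and the next highest library was myeloid cells for 5 of the 6. Prg2, the eosinophil major basic protein, stood at 1057 FPKM in the lineage-negative library, 85.7 in B cells, 19.9 in T cells and 133 in myeloid cells. Epx, eosinophil peroxidase, stood at 117 FPKM against 9.14, 2.76 and 13.3. The ribonuclease genes Ear1, Ear2 and Ear6 stood at 122, 131 and 93.5 FPKM, and are close copies whose reads the counting could divide among them. Ccr3 and Il5ra, receptors of mature eosinophils, were not highest in the lineage-negative library, at 1.83 and 2.06 FPKM against highest other levels of 2.78 and 8.03.

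Regulators and membrane genes of red cell precursors were higher, while globin transcripts were not. Of 13 erythroid factors and receptors compared, 9 were higher than the mean, none was lower and 6 were above all 3, and the count above all 3 was also 6 under the median-ratio scaling. Gata1, the factor that directs the erythroid programme, stood at 22.4 FPKM in the lineage-negative library, 2.28 in B cells, 4.16 in T cells and 2.41 in myeloid cells. Klf1, an activator of globin and membrane genes, stood at 8.24 FPKM against 0.967, 0.919 and 0.213, and Epor, the erythropoietin receptor, stood at 7.64 against 0.995, 0.514 and 0.19. Samd14 and Gfi1b stood at 8.79 and 16.8 FPKM, 7.76-fold and 3.87-fold above the highest of the others. Nfe2 was highest in myeloid cells, at 307 FPKM, against 121 in the lineage-negative library.

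Of 17 globin, membrane and late red cell genes compared, 11 were above all 3 and 1 was lower than the mean. With a pseudocount of 5, which shrinks differences of genes with low FPKM, the count above all 3 was 4. Ermap, an erythroid membrane protein, stood at 16.5 FPKM in the lineage-negative library, 2.10 in B cells, 0.925 in T cells and 0.555 in myeloid cells. Kel, the Kell blood group antigen, stood at 8.76 FPKM against 1.25, 0.539 and 0.254, and Car2, a carbonic anhydrase, stood at 95.5 against 34.5, 13.2 and 6.08. Hbb-bs, an adult beta-globin, stood at 12.5 FPKM against 43.3, 22 and 15, and was the lowest of the 4 in the lineage-negative library. Hba-a1 stood at 16.6 FPKM against 31.9, 16.5 and 9.93, and Hba-a2, the 1 member called lower, at 1.42 against 12, 5.78 and 3.03. Each globin has a near-identical copy in the genome, and division of reads between copies is uncertain. Alas2, the enzyme that starts haem synthesis in red cell precursors, was at 1.26 FPKM against 1.41 in B cells. The haem and iron list had 4 of 10 higher and 1 above all 3, Steap3, an iron reductase, at 12.2 FPKM against 3.76, 2.77 and 1.79. Over all genes 17.5% were higher and 4.29% above all 3. Megakaryocyte and platelet genes had 6 of 12 higher and 4 above all 3, or 2 above all 3 with a pseudocount of 5. Without the myeloid library 7 were above both others, as were 1187 genes in all. Itga2b, integrin CD41, stood at 122 FPKM against 9.61, 37 and 12.5, and Pf4, platelet factor 4, at 28.9 against 5.92, 2.33 and 3.21. Vwf, von Willebrand factor, stood at 3.82 FPKM against 0.282, 0.142 and 0.352, while the other 6 genes of the list were highest in the myeloid library. Thbs1, thrombospondin 1, stood at 104 FPKM against 605 in myeloid cells, Itgb3, the integrin partner of Itga2b, at 11.6 against 27.5, and Gp1ba, a platelet glycoprotein, at 1.27 against 1.58. The 12 genes summed to 284 FPKM, against 42.7 in B cells, 61.0 in T cells and 663 in myeloid cells.

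**Figure D3:**
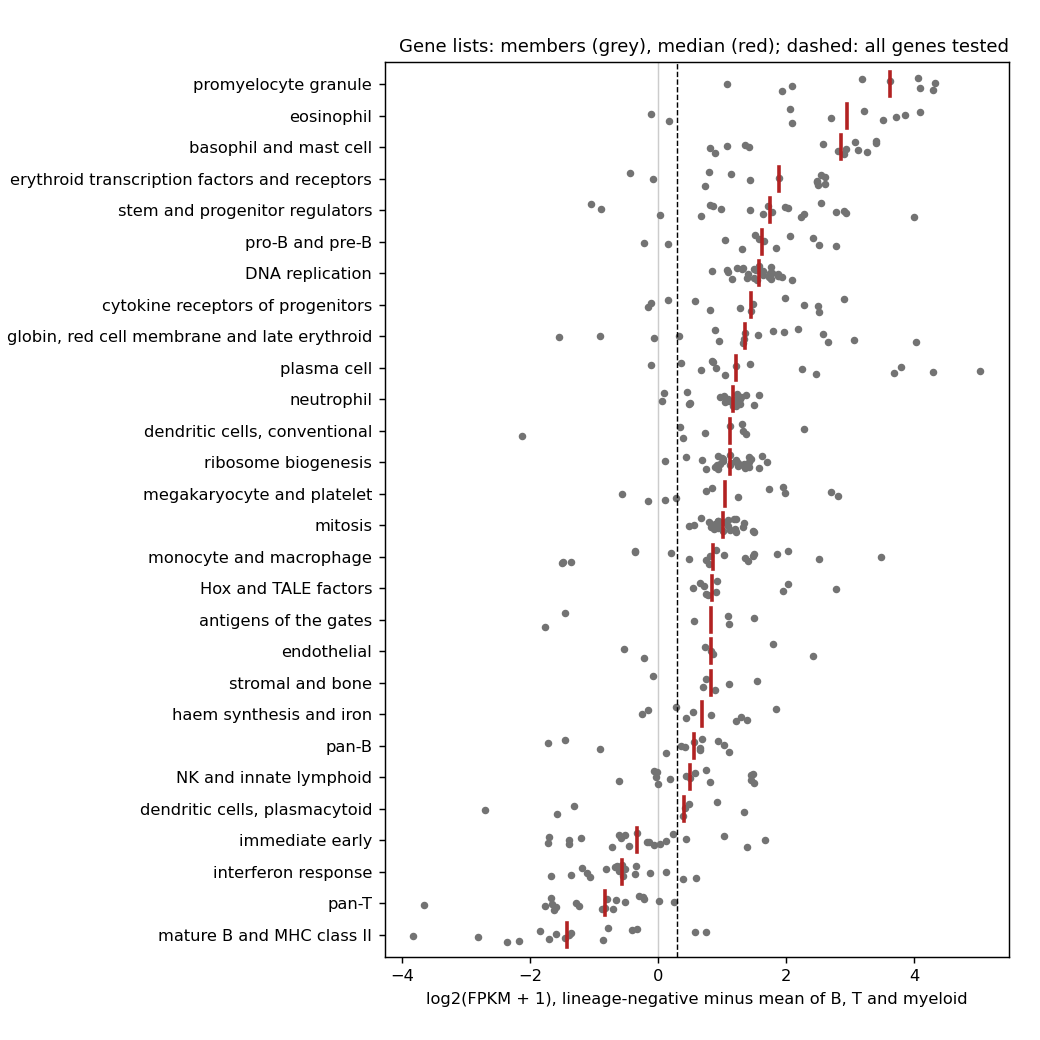
Difference between the lineage-negative library and the mean of the 3 other normal libraries on the log2(FPKM + 1) scale, with 1 point per gene a red bar at the median of each list and a dashed line at the median of all genes, 0.29. The medians run from 3.62 for promyelocyte granule genes to −1.42 for mature B-cell and MHC class II genes.

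Early B-lineage genes stood near the B-cell level and mature B-cell genes far below it. In the list of 12 genes for pro-B and pre-B stages, 10 were higher than the mean and none was above all 3. Without the B-cell library 10 were above both others, as were 1221 genes in all. Dntt, the template-independent polymerase of early lymphocytes, stood at 67.3 FPKM in the lineage-negative library, 35.2 in B cells, 6.67 in T cells and 2.54 in myeloid cells. Igll1 and Vpreb1, which form the surrogate light chain, stood at 73.3 and 90.3 FPKM against 67.1 and 71.6 in B cells; Vpreb1 has a close copy, Vpreb2, so its reads are uncertain. The lineage-negative level of the 12 genes was a median of 74.7% of the B-cell level, and 5 of 12 were over 100%. The T-cell library held 18.3%, and the myeloid library 3.48%. For the 13 genes common to the B lineage the median was 17.7%, with Pax5, the factor that fixes B-lineage commitment, at 164 FPKM against 1073 in B cells. Against the mean their median was 0.56, and −1.28 without the myeloid library.

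Of 16 mature B-cell and MHC class II genes, none was higher than the mean and 10 were lower, with a median of −1.42. Their median level was 5.08% of the B-cell level in the lineage-negative library and 13.3% in the T-cell library. Fcer2a, the low-affinity IgE receptor CD23, stood at 0.788 FPKM in the lineage-negative library, 299.6 in B cells, 40.8 in T cells and 0.302 in myeloid cells. Cr2, a complement receptor of mature B cells, stood at 0.120 FPKM against 58.1, 7.28 and 0.00927. Cd74, the invariant chain of MHC class II, stood at 136 FPKM against 2869.6, 354 and 87.0. For these genes the lineage-negative level was below that of the T-cell library and above that of the myeloid library.

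Plasma cell genes were mixed. Of 15, 9 were higher than the mean and 5 were above all 3, or 2 when segments and predicted genes were left out. Without the B-cell library 9 were above both others, as were 1221 genes in all. Jchain, which joins IgA and IgM units, stood at 208 FPKM in the lineage-negative library, 19.5 in B cells, 25.2 in T cells and 5.36 in myeloid cells, 8.24-fold above the highest. Igha, the IgA heavy chain, stood at 672 FPKM against 73.9, 93.8 and 19.2. Ighg2b and Ighg1, IgG heavy chains, stood at 247 and 48.7 FPKM against highest other levels of 22.3 and 2.06, although reads of the similar IgG constant genes can be shared. The IgM heavy chain was in the opposite order, with Ighm at 973 FPKM against 2952 in B cells, and so was Sdc1, the plasma cell antigen CD138, at 23.4 against 41.4.

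No gene common to T cells was higher than the mean, and 8 of 19 were lower, with a median of −0.83. Without the T-cell library the median was 1.19. Their level was a median of 3.24% of the T-cell level, from 0.247% for Themis to 11.4% for Lef1. Thy1 stood at 37.5 FPKM in the lineage-negative library, 16.4 in B cells, 1158 in T cells and 3.67 in myeloid cells. Natural killer and innate lymphoid genes stood at a median of 23.0% of the T-cell level. Of 15, 4 were higher than the mean, beside 17.5% of all genes. Their median difference was 0.49, and −0.55 without the myeloid library. Nkg7, a granule membrane protein, stood at 268 FPKM against 40.7, 533 and 39.2, Gzma, granzyme A, at 86.5 against 47.0, 97.2 and 5.23, and Ncr1, the natural killer receptor NKp46, at 18.2 against 9.32, 16.6 and 0.918. Il1rl1, a receptor for interleukin-33 on innate lymphoid cells and basophils, stood at 7.65 FPKM against 0.524, 5.70 and 2.08.

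Endothelial and stromal genes were mostly not highest in the lineage-negative library. Of 11 endothelial genes, 7 were compared and 2 were above all 3, Tie1 at 3.50 FPKM against 0.269, 0.131 and 0.529 and Egfl7 at 12.4 against 2.80, 0.838 and 1.28. The 7 genes summed to 80.9 FPKM, against 111 in B cells, 62.7 in T cells and 11.8 in myeloid cells, and most of the sum was Pecam1, an adhesion molecule that blood cells also carry, at 60.0 against 91.0 in B cells. Of 12 stromal genes, 9 were in the table, 6 were compared and 2 were above all 3, Pdgfrb at 2.32 FPKM against 0.0787, 0.220 and 0.134 and Col1a2 at 1.44 against 0.197, 0.0945 and 0.109. The 6 stromal genes summed to 84.3 FPKM, against 124 in B cells, 29.7 in T cells and 31.7 in myeloid cells, and most of the sum was Runx2, a bone factor also expressed in blood cells, at 70.2 against 106 in B cells. The stromal count above all 3 was 1 under the median-ratio scaling. Without the B-cell library 4 stromal genes were above both others, as were 1221 genes in all.

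DNA replication genes were higher in lineage-negative cells. Of 27, 26 were higher than the mean, 11 were above all 3 and 25 were highest in the lineage-negative library, with a median of 1.58. Under the median-ratio scaling 19 were higher, 4 were above all 3, 23 were highest and the median was 1.16, and with libraries scaled to a common FPKM sum 7 were above all 3. Cdc6, which loads the replicative helicase, stood at 30.3 FPKM in the lineage-negative library, 9.97 in B cells, 4.15 in T cells and 6.15 in myeloid cells. Mcm6, a helicase subunit, stood at 212 FPKM against 83.2, 70.0 and 39.6, and Tyms, thymidylate synthase, at 48.8 against 18.0, 8.71 and 16.3. B cells were the next highest library for all 11 genes above all 3. Without the B-cell library 22 were above both others, as were 1221 genes in all. Mitosis genes had 14 of 27 higher than the mean and none above all 3, beside 17.5% and 4.29% of all genes. Under the median-ratio scaling 2 of 27 were higher, beside 986 of all 11542 genes, so the share called higher was not above that of all genes. The mitosis median was still 0.60 under that scaling, against −0.05 over all genes, and none of the 27 was called lower. Mki67, the proliferation antigen Ki-67, stood at 136 FPKM against 112, 34.5 and 92, and Aurkb, Aurora kinase B, at 126 against 72.1, 20.2 and 59.8. The lineage-negative library was the highest for 21 of the 27 mitosis genes as deposited and for 6 under the median-ratio scaling. Ribosome biogenesis genes had 18 of 28 higher than the mean, or 6 under the median-ratio scaling, and none above all 3. Under that scaling their median was 0.73, and the lineage-negative library was the highest for 18 of the 28. Npm1, a nucleolar chaperone, stood at 757 FPKM against 438, 614 and 84.9, and its myeloid level was the lowest of the 4.

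**Figure D4:**
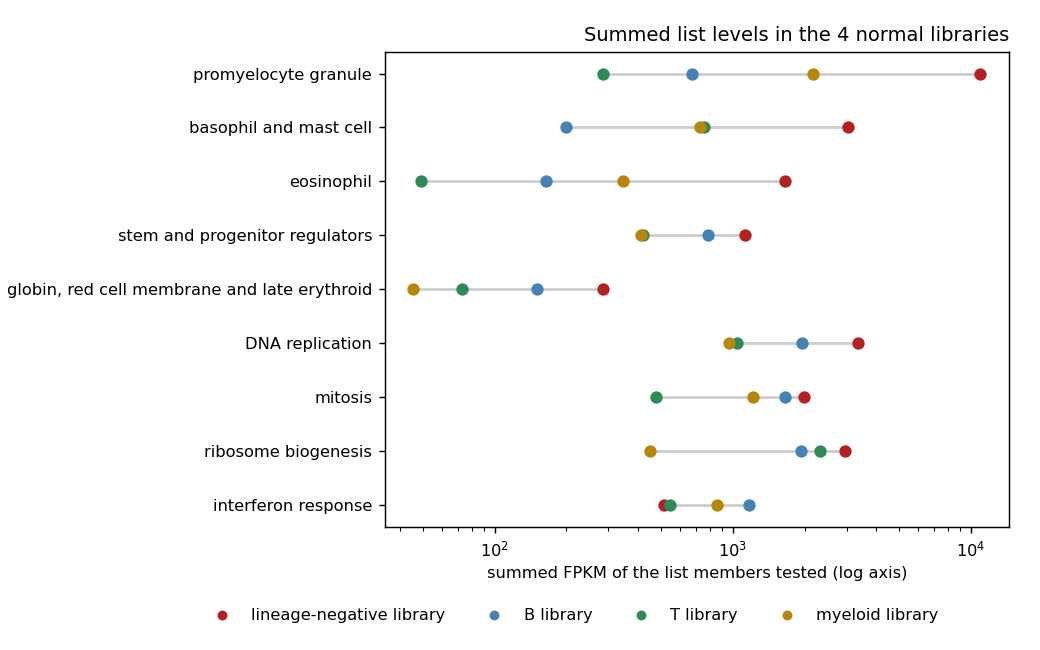
Summed FPKM of 9 gene lists in the 4 normal libraries, on a log axis, with 1 point per library and a grey line over their range. Promyelocyte genes sum to 10939 in lineage-negative cells and 2178 in myeloid cells, and the lineage-negative point is the lowest of the 4 for interferon response genes, at 515.

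Genes lower in lineage-negative cells than in all 3 others were few. Samd9l, an interferon-induced antiviral protein, stood at 41.5 FPKM in the lineage-negative library, 148 in B cells, 141 in T cells and 136 in myeloid cells, so that the lowest of the 3 was 3.28-fold above it, with an interval of 3.18 to 3.38. Stk17b, a kinase of lymphocytes, stood at 81.2 FPKM against 283, 263 and 314, and Ltb, lymphotoxin beta, at 31.8 against 310, 672 and 97. For Samd9l and Stk17b the 3 other libraries were close to one another, and for Ltb they spanned a wide range. Irf7, a regulator of type I interferon genes, stood at 32.2 FPKM against 81.8, 77.4 and 95.5, and Btg1, an antiproliferative gene, at 99.2 against 327, 253 and 259. The remaining 5 of the 10 farthest below were Sh3bp5, Phf1, Fam65b, Fam134b and St3gal6, between 2.42-fold and 2.62-fold below the lowest of the 3.

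Of 19 interferon response genes, none was higher than the mean, 5 were lower and 1, Irf7, was below all 3. Their median was −0.56, or −0.98 under the median-ratio scaling. Over all genes 17.5% were higher, 3.59% lower and 0.259% below all 3. Ifit3 stood at 2.87 FPKM in the lineage-negative library, 4.90 in B cells, 15.2 in T cells and 18.8 in myeloid cells, and Isg15, a ubiquitin-like protein, at 10.2 against 13.6, 23.3 and 38.9. Bst2, which is also a plasmacytoid dendritic cell antigen, stood at 255 FPKM against 796, 162 and 57.2. Of 21 immediate early genes, 3 were higher than the mean, 5 were lower and 2 were below all 3, or none when libraries were scaled to a common FPKM sum. Klf2, a quiescence factor of lymphocytes, stood at 105 FPKM against 380.3, 463 and 235, and Ier5 at 48.2 against 169, 113 and 109. Junb stood at 452 FPKM against 585, 1691 and 1156, whereas Jun stood at 373 against 297, 388 and 180. Ier3 was higher than the mean, at 56.7 FPKM against 4.12, 25.1 and 43.3.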

How the data were processed

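Poly(A) RNA of 8 samples was sequenced as 150-base read pairs, per the labels' protocols, and the submitters' processing notes list STAR, HTSeq and edgeR beside the build mm10, with versions and roles not given in the sources used here. The authors deposited FPKM values for 16434 genes, and how genes entered the table is not stated there. Levels were compared as log2(FPKM + 1) in 4 libraries, with no test since each group is 1 library. Python 3.11.15 with pandas 2.3.3, numpy 2.4.6 and scipy 1.17.1 was used. Fragments were recovered from FPKM and mean GENCODE vM21 transcript length, within 0.02 of a whole number for 95.9% to 96.7% of values of single-transcript genes in the 4 libraries. Gene coordinates are GENCODE vM21 (GRCm38). Named genes were the 20 farthest above the highest and the 10 farthest below the lowest of the 3 others with FPKM of at least 10, without segments and predicted genes, up to 4 per list by difference from the mean with FPKM of at least 5, the genes of the sorting antigens, and other list members named for their value. The genes compared and the 28 lists were chosen with earlier results of these data known. Alternatives were other pseudocounts, filters, scalings, references and sets of libraries, and the comparison without segments and predicted genes. The code was tested on simulated data.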

Additional observations from a re-analysis of the deposited data

How the results depend on the processing

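With 1 library per group no replicate could be left out within a group, and each of the 3 reference libraries was left out in turn instead. No paired analysis was possible because each group holds 1 library. With a pseudocount of 0.1, 3066 genes were higher than the mean, 783 lower and 77 below all 3, and with a pseudocount of 5 the counts were 907 higher, 197 lower, 215 above all 3 and 15 below all 3. Median-ratio scaling gave 986 higher, 900 lower, 256 above all 3 and 114 below all 3, with 52.3% of calls higher and a median difference of −0.053. Leaving out 1 reference library gave 1853 (without myeloid) to 2911 (without B cells) genes higher than the mean, 387 (without T cells) to 1067 (without myeloid) lower, 721 (without T cells) to 1221 (without B cells) above all that remained and 86 (without T cells) to 357 (without myeloid) below all that remained, with 63.5% (without myeloid) to 86.3% (without T cells) of calls higher and a median difference of 0.08 to 0.45. With fewer reference libraries the rule on all of them is easier to meet. Against the median of the 3 in place of the mean, Cd3e was 0.73 and Themis 0.019. Over the leave-one-out comparisons the neutrophil median ran from −0.25 to 3.37, Cd3e from −3.01 to 0.73, Cd5 from −2.78 to 0.23, Ms4a1 from −3.79 to 0.059, Itgam from −0.020 to 2.95, Ngp from −0.17 to 3.57, Retnlg from −0.11 to 3.69, Blnk from −0.22 to 2.51, Cox6a2 from −0.025 to 2.96 and Ebf1 from −0.38 to 2.43, because the library left out is the one that holds, or lacks, these transcripts. Of the 16 list medians of at least 1 in size, 10 stayed so under median-ratio scaling and 8 with a pseudocount of 5. The 20 genes farthest above and the 10 farthest below the other libraries stayed past the 2-fold limit in all 11 alternatives. They were picked by these same differences, which other filters, the median of the 3 or fewer libraries could not bring inside the limit. Only the pseudocounts and scalings could have done so. Depth limits genes near an FPKM of 1, and differences between mice or sorts could not be measured.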

Other observations

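The 497 genes above all 3 other normal populations were also read in the 4 leukaemia libraries, each 1 library of GFP-positive cells, and these levels belong to no comparison above. Their median FPKM was 12.2 in the lineage-negative library, 2.97 in the acute myeloid leukaemia (AML), 2.04 in the B-cell acute lymphoblastic leukaemia (B-ALL), 1.18 in the T-cell acute lymphoblastic leukaemia (T-ALL) and 0.804 in the library labelled AUL. The genes were chosen for being high in the lineage-negative library, so its median is not on a like footing with the leukaemia medians. An FPKM of at least 1 was reached by 298 of the 497 genes in AML, or 60.0%, against 69.9% of all compared genes, and by 234 in AUL, or 47.1%, against 72.1%. For B-ALL the shares were 58.1% and 78.5%, and for T-ALL 51.7% and 73.4%. AML was the highest of the 4 leukaemias for 220 of the genes, B-ALL for 146, T-ALL for 80 and AUL for 51. In all 4 leukaemias 130 of the 497, or 26.2%, were under an FPKM of 1, against 1548 of the 11587 genes compared, or 13.4%. Ctsg stood at 1127 FPKM in AML, 31.8 in B-ALL, 5.43 in T-ALL and 8.79 in AUL, against 1059.9 in the lineage-negative library. Cd34 stood at 0.183 FPKM in AML, 1.32 in B-ALL, 0.348 in T-ALL and 0.148 in AUL, against 68.8 in the lineage-negative library.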
